A study of Mus musculus with 14 samples.

Results

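The lipid droplet proteins and PPAR-gamma steatosis genes are 10 genes chosen by name from the deposited read count table of mouse liver: Pparg, Plin2, Plin4, Plin5, Cidea, Cideb, Cidec, G0s2, Pnpla2 and Pnpla3. All 10 were among the 25212 listed genes, and all 10 had enough counts to be tested. The livers came from 14 male C57BL/6 mice fed a high-fat diet before and after surgery, with 1 library per mouse. The DIO group (diet-induced obese, no surgery) had 5 livers. The GB-IL group, in which the gallbladder was joined to the ileum and the common bile duct was tied off, had 4. The RYGB group (Roux-en-Y gastric bypass) had 5. The labels place all livers at 8 weeks after surgery or no surgery, whereas the paper's legend for 1 panel of liver expression gives 4 weeks. No sham-operated liver was sequenced, so the operation as such and the diversion of bile cannot be told apart.

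Hepatocytes store triglyceride in lipid droplets, whose surface proteins set how fast fat is laid down and released. Pparg encodes the nuclear receptor PPAR-gamma, which is scarce in lean liver and is known for driving a fat-storage programme in steatotic liver, with Cidec, Cidea and Plin4 among its targets. Perilipins (Plin2, Plin4, Plin5) coat the droplet, CIDE proteins (Cidea, Cideb, Cidec) enlarge droplets or load lipid onto lipoproteins, Pnpla2 encodes the main triglyceride lipase (ATGL), and G0s2 encodes its inhibitor. Pnpla3 encodes a related droplet protein whose human variant is a known risk factor for fatty liver.

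Total counts were 18440676 to 21473005 per liver in DIO, 19231679 to 26131278 in GB-IL and 18223135 to 28656631 in RYGB. Levels are CPM (read counts relative to the library total, scaled by edgeR's TMM method), and group differences were tested with edgeR (quasi-likelihood, all livers fitted together, Benjamini-Hochberg adjustment over 14252 genes). A false discovery rate (FDR) under 0.05 is a call. The GB-IL livers were not alike. The leading principal component (48.5% of variance) placed GB-IL livers 1, 2 and 3 at -134, -106 and -20.1, and placed GB-IL liver 4 at 35.3, inside the DIO range of 21.9 to 45.7. RYGB liver 5 lay at -17.4, and the other RYGB livers lay between 2.14 and 33.8. Summed hepatocyte markers, a sum made up mostly of Alb, overlapped between groups, but single markers went different ways. Ttr stood at 1607, 2186 and 3742 CPM in GB-IL livers 1 to 3, against 5696 to 9294 CPM in DIO. Tat stood at 11068, 4269 and 2306 CPM in these livers, against 539 to 2385 CPM in DIO. By comparison, lipid-associated macrophage markers summed to 609, 405 and 259 CPM in GB-IL livers 1 to 3 and to 65.4 CPM in GB-IL liver 4, against 42.9 to 79.7 CPM in DIO and 73.7 to 109 CPM in RYGB. Their part in the results for the members was not tested. In bulk liver, fewer cells of a type and less RNA per cell cannot be told apart.

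No member passed the FDR in any of the 3 comparisons. Of all tested genes, 3.26% were called in GB-IL against DIO, 0% in RYGB against DIO and 0% in GB-IL against RYGB. At an unadjusted p under 0.05 there were 3 of 10 members in GB-IL against DIO (Cideb, G0s2 and Pnpla2), where 23.1% of all genes stood at that level. There was 1 in RYGB against DIO (Plin5, beside 8.71% of all genes) and there were 2 in GB-IL against RYGB (Cidec and Pnpla2, beside 22.1%). These shares are near the background. No member had groups that did not overlap, which 4.17%, 3.53% and 2.84% of all genes had in the same order of comparisons. RYGB and GB-IL share the DIO livers as their control.

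**Figure D1:**
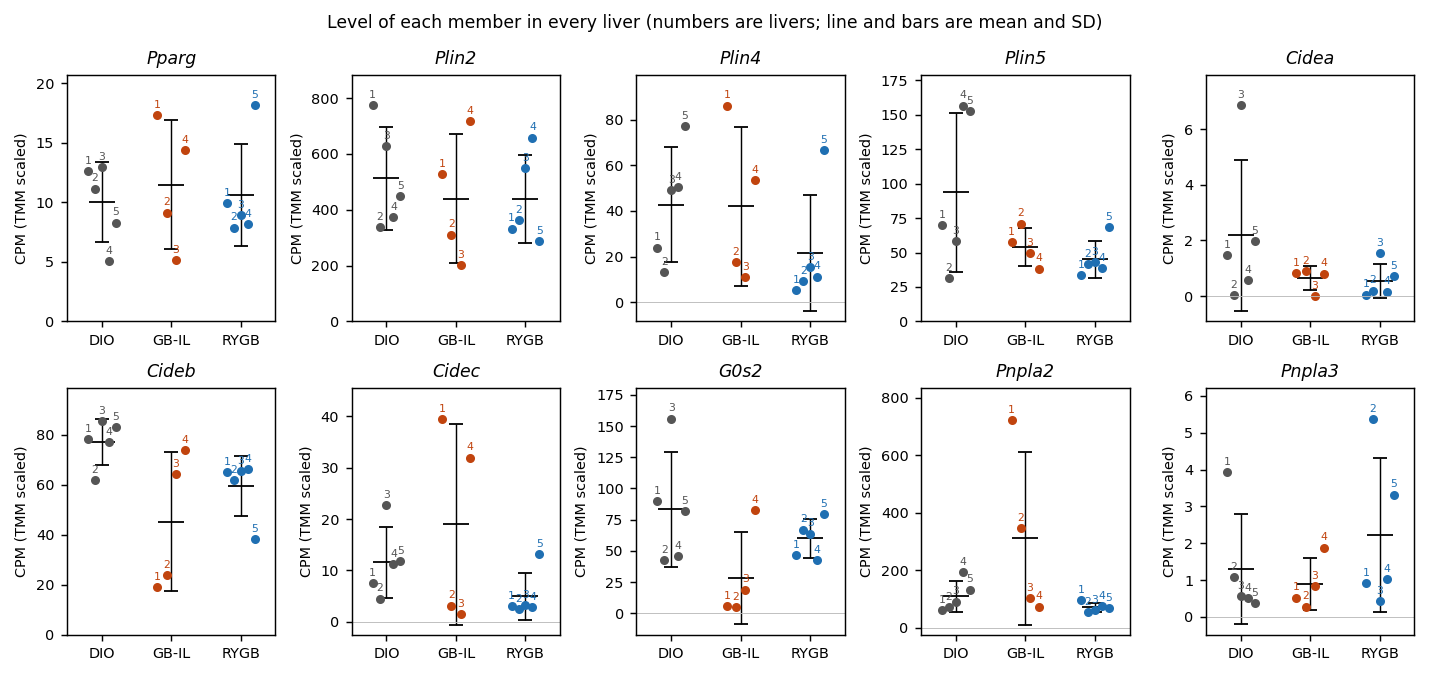
TMM-scaled CPM of each of the 10 members (vertical axis, linear, own scale per panel) in the livers of the DIO (n = 5), GB-IL (n = 4) and RYGB (n = 5) groups. Numbered points are livers, and the black line and bars are the mean and SD. GB-IL livers 1 and 2 stand highest for Pnpla2 and lowest for G0s2 and Cideb, and RYGB liver 5 is highest of its group for Pparg, Plin4, Plin5 and Cidec.

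The lipase Pnpla2 stood high and its inhibitor G0s2 low in GB-IL livers 1 and 2. Pnpla2 (ENSMUSG00000025509, chr7:141455198-141460743, plus strand, GRCm38/mm10) stood at 723, 346, 104 and 74.1 CPM in GB-IL livers 1 to 4. It stood at 60.7, 72.1, 91.5, 194 and 133 CPM in DIO and at 96.1, 54.5, 63.3, 76.4 and 69.2 CPM in RYGB. The 2 highest GB-IL livers were above every DIO liver, 3 GB-IL livers were above every RYGB liver, and the groups overlapped. The fitted log2 difference between GB-IL and DIO was 1.50 (standard error 0.536, 95% interval 0.36 to 2.64, adjusted p = 0.124 by edgeR). Between GB-IL and RYGB it came to 2.12 (standard error 0.543, adjusted p = 0.0876 by edgeR), and between RYGB and DIO to -0.62 (95% interval -1.70 to 0.46). DESeq2 called Pnpla2 in GB-IL against both groups (adjusted p = 0.0485 against DIO, where it called 9.07% of genes, and 0.00476 against RYGB, where it called 5.93%). By voom with sample quality weights the difference from DIO was 0.18 (adjusted p = 0.891), and without GB-IL liver 1 it was 0.67.

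G0s2 (ENSMUSG00000009633, chr1:193272161-193273217, minus strand) lies inside Lamb3, a gene of the opposite strand, with which it shares 0 exon bases. It stood at 5.52, 4.80, 18.9 and 82.4 CPM in GB-IL livers 1 to 4, at 90.1, 42.8, 156, 45.5 and 81.7 CPM in DIO and at 46.6, 67.0, 63.8, 42.5 and 79.6 CPM in RYGB. Thus 3 of 4 GB-IL livers lay below every DIO liver, which 12.7% of all genes did. The fitted log2 difference between GB-IL and DIO was -1.57 (standard error 0.687, 95% interval -3.04 to -0.11, adjusted p = 0.191 by edgeR), and that between RYGB and DIO was -0.47 (95% interval -1.80 to 0.85).

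Within a liver, G0s2 and Pnpla2 counts can be set against each other without a scaling factor. There were 131, 72.1 and 5.50 Pnpla2 reads per G0s2 read in GB-IL livers 1, 2 and 3, and 0.898 in GB-IL liver 4. The DIO livers ranged from 0.586 to 4.25 and the RYGB livers from 0.814 to 2.06. GB-IL livers 1 to 3 were therefore outside the range of the other 10 and GB-IL liver 4 was inside it.

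With GB-IL liver 4 left out, 3 members were called in GB-IL against DIO, beside 24.6% of all genes. G0s2 was lower by edgeR (log2 fold change -3.09, adjusted p = 0.00217), Cideb was lower (-1.11, adjusted p = 0.0299) and Pnpla2 was higher (1.82, adjusted p = 0.0156). In GB-IL against RYGB, G0s2 (-2.62, adjusted p = 0.00789 by edgeR) and Pnpla2 (2.43, adjusted p = 0.00697) were called, beside 21.5% of all genes. These member counts again stand near the share of all genes called. The remaining 7 members were not called without that liver. With RYGB liver 5 also left out, the same 3 and 2 members were called, beside 25.7% and 21.5% of all genes.

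**Figure D2:**
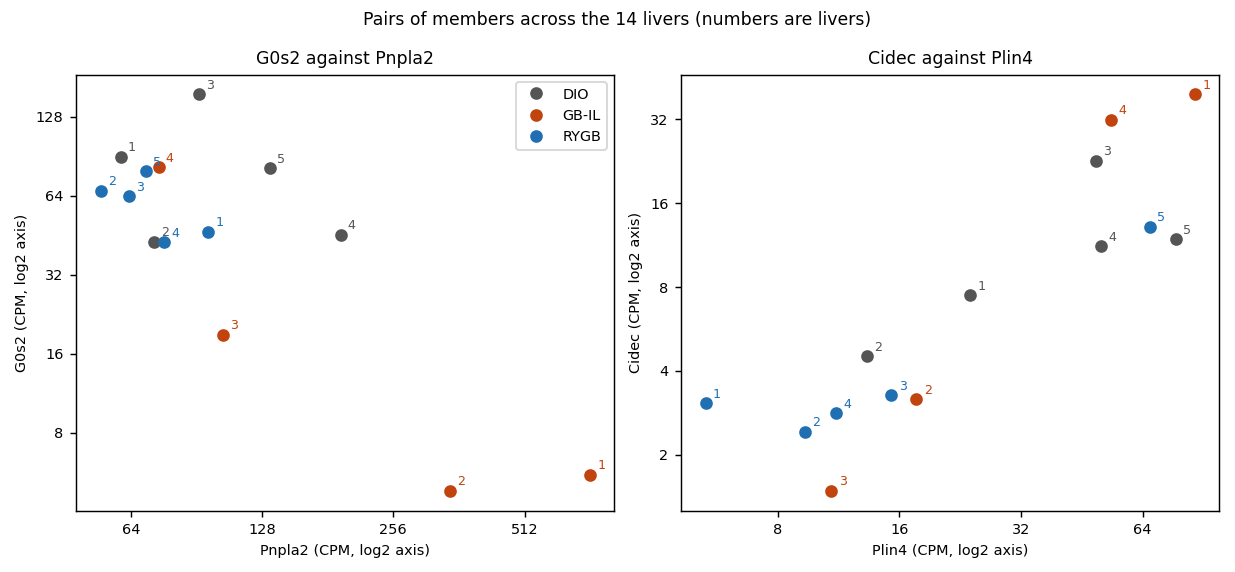
G0s2 against Pnpla2 (left) and Cidec against Plin4 (right) in the 14 livers, as TMM-scaled CPM on log2 axes. Colours are groups and numbers are livers. GB-IL livers 1 and 2 lie apart from the rest in the left panel, at high Pnpla2 and low G0s2, whereas in the right panel livers of all groups lie along 1 diagonal.

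Among the CIDE genes, Cideb (ENSMUSG00000022219, chr14:55754050-55758458, minus strand), which acts in lipoprotein lipidation, stood at 19.1, 23.9, 64.3 and 73.7 CPM in the GB-IL livers. It stood at 62.0 to 85.4 CPM in DIO (median 78.2) and at 65.2, 61.8, 65.5, 66.2 and 38.2 CPM in RYGB. GB-IL livers 1 and 2 and RYGB liver 5 were low, and the other livers lay close together. GB-IL differed from DIO by -0.77 on the log2 scale (standard error 0.340, adjusted p = 0.196 by edgeR). Of the 1488 exon bases of Cideb, 1136 (76.3%) are shared with Nop9 on the opposite strand, and whether strand was used in counting is not given in the sources used here, so its level is uncertain. Nop9 itself stood at 28.4 and 29.7 CPM in GB-IL livers 1 and 2 and at 15.9 to 24.3 CPM in DIO.

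Cidec (ENSMUSG00000030278, chr6:113424634-113435760, minus strand), which promotes fusion of droplets, split the GB-IL group. Its level was 39.4 and 31.9 CPM in GB-IL livers 1 and 4, above every DIO liver, and 3.16 and 1.48 CPM in GB-IL livers 2 and 3, below every DIO liver. The DIO livers held 7.48, 4.53, 22.7, 11.2 and 11.9 CPM, and the RYGB livers 3.06, 2.42, 3.27, 2.81 and 13.2 CPM. Thus 4 of 5 RYGB livers lay below every DIO liver, beside 5.87% of all genes. On the log2 scale GB-IL differed from DIO by 0.72 (95% interval -0.97 to 2.40), and RYGB by -1.21 (standard error 0.765, adjusted p = 0.680 by edgeR). Limma's voom with sample quality weights, which gives livers that stand apart less weight, called Cidec lower in RYGB (log2 fold change -1.78, adjusted p = 0.0247) and turned its sign in GB-IL against DIO (-1.47, adjusted p = 0.332).

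Cidea, a CIDE gene of brown fat that also appears in steatotic liver, had few counts. It had 16, 16, 0 and 22 counts in the GB-IL livers, 28, 1, 135, 10 and 41 in DIO and 1, 4, 44, 4 and 21 in RYGB. The 0 in GB-IL liver 3 allows up to 3 counts, or 0.127 CPM, for counting error only. The highest value was 6.87 CPM in DIO liver 3. The 95% intervals of the log2 fold change were -4.07 to 0.51 in GB-IL and -4.07 to 0.15 in RYGB against DIO, which span both equal levels and a decrease of many fold.

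The perilipins differed in how they varied. Plin2 (ENSMUSG00000028494, chr4:86648386-86670060, minus strand), the perilipin found on most hepatocyte droplets, had the highest mean level of the members per kilobase in every group, with a range that overlapped that of the next member in each. This rank takes all exon bases of Cideb as counted, which is uncertain because most are shared with Nop9. The CPM of Plin2 were 528, 311, 201 and 719 in GB-IL, 338 to 775 in DIO (median 450) and 289 to 659 in RYGB (median 363), and the groups overlapped. Compared with DIO, the log2 difference was -0.22 for GB-IL (95% interval -1.03 to 0.58) and -0.23 for RYGB (95% interval -0.98 to 0.53).

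Plin4 (ENSMUSG00000002831, chr17:56100591-56109803, minus strand), a perilipin most abundant in fat tissue, held 86.2, 17.6, 10.9 and 53.4 CPM in the GB-IL livers and 23.9, 13.3, 49.0, 50.6 and 77.2 CPM in DIO. In RYGB it held 5.30, 9.32, 15.3 and 11.2 CPM in livers 1 to 4 and 66.8 CPM in liver 5. Compared with DIO, the log2 difference for RYGB was -0.98 (standard error 0.700, adjusted p = 0.719 by edgeR), and without RYGB liver 5 it was -2.04. Voom with sample quality weights called it lower in RYGB (-2.01, adjusted p = 0.0174).

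Plin5 (ENSMUSG00000011305, chr17:56111601-56117596, minus strand), the perilipin of oxidative tissues, which tethers droplets to mitochondria, separated the DIO livers. DIO livers 4 and 5 held 157 and 152 CPM, whereas DIO livers 1 to 3 held 69.7, 31.2 and 58.0 CPM. The GB-IL livers held 57.4, 70.9, 49.8 and 38.3 CPM and the RYGB livers 33.6, 41.8, 42.8, 38.8 and 68.4 CPM. Compared with DIO, the log2 difference for RYGB was -1.05 (standard error 0.374, 95% interval -1.85 to -0.25, adjusted p = 0.473 by edgeR), and the adjusted p was 0.0138 by voom with sample quality weights. In that voom fit 3 of 10 members, Plin4, Plin5 and Cidec, were lower in RYGB, where 5.77% of all genes were called lower.

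**Figure D3:**
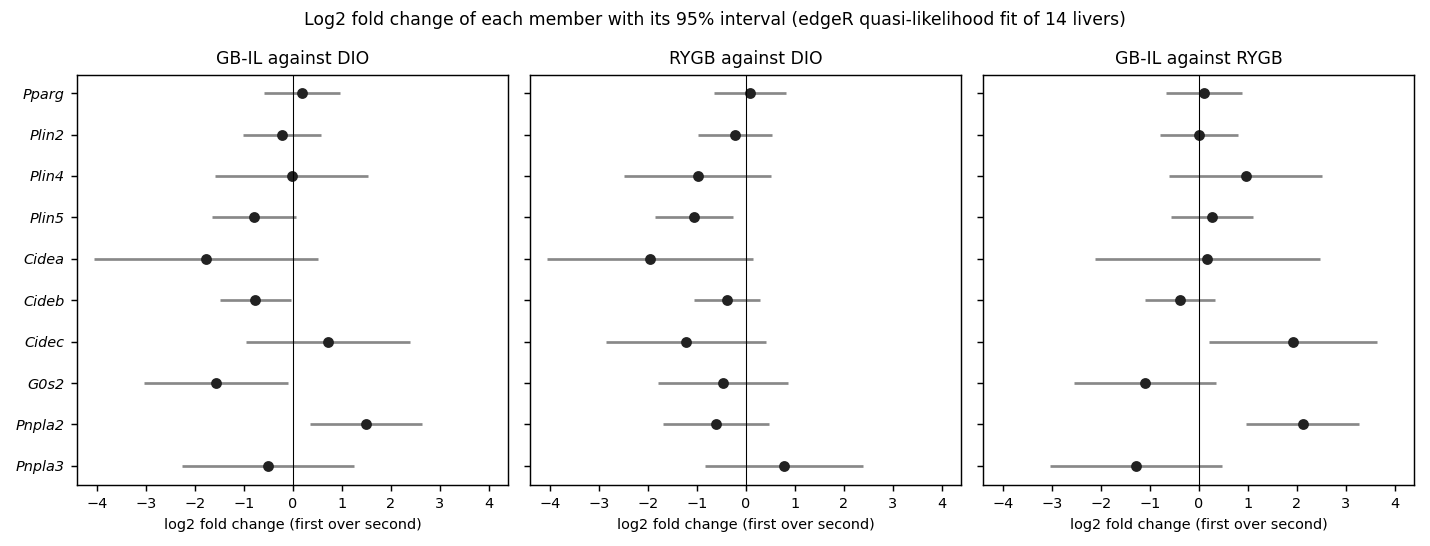
Log2 fold change of each member (points) with its 95% interval (lines) in GB-IL against DIO, RYGB against DIO and GB-IL against RYGB, from the edgeR quasi-likelihood fit of 14 livers. The vertical line marks 0. The interval of Pnpla2 lies above 0 in both comparisons of GB-IL, and that of Cidec lies above 0 in GB-IL against RYGB. Those of G0s2 and Cideb lie below 0 in GB-IL against DIO, that of Plin5 lies below 0 in RYGB against DIO, and none passed the FDR.

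Pparg itself (ENSMUSG00000000440, chr6:115360951-115490399, plus strand) overlapped between groups. It held 17.3, 9.15, 5.13 and 14.4 CPM in the GB-IL livers, 12.7, 11.2, 13.0, 5.09 and 8.32 CPM in DIO and 9.95, 7.89, 8.91, 8.19 and 18.2 CPM in RYGB. Compared with DIO, the log2 difference was 0.19 for GB-IL (95% interval -0.58 to 0.97) and 0.08 for RYGB (95% interval -0.65 to 0.81).

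Pnpla3 (ENSMUSG00000041653, chr15:84167837-84187236, plus strand) had few counts, 5 to 109 per liver. Its CPM were 0.525, 0.282, 0.848 and 1.88 in GB-IL, 3.93, 1.08, 0.560, 0.509 and 0.385 in DIO and 0.930, 5.38, 0.422, 1.03 and 3.32 in RYGB. The spread within groups exceeded the difference between them, with a log2 difference of 0.77 between RYGB and DIO (95% interval -0.83 to 2.38). Of its exon bases 6.78% are shared with other annotated genes.

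Per kilobase of exon, the order of the levels in DIO was Plin2 (146 CPM per kb), G0s2 (95.5), Cideb (51.9), Plin5 (44.8), Pnpla2 (36.5), Plin4 (7.41), Cidec (6.23), Pparg (3.40), Cidea (1.96) and Pnpla3 (0.835). Only Pnpla2 and Plin4 were neighbours whose ranges over the DIO livers did not overlap. The place of Cideb in this order, which may lie higher, is uncertain. Of its exon bases 76.3% are shared with Nop9, and whether strand was used in counting is not given. In GB-IL, Pnpla2 stood next to Plin2, at 103 CPM per kb with an SD of 99.3, whereas G0s2 had 32.1 CPM per kb.

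Of the 45 pairs of members, Plin4 and Cidec followed each other most closely over the 14 livers (Pearson r = 0.888, permutation p = 2e-05). The permutation p adjusted over the pairs was 0.0009, and Spearman rho was 0.899 with the same p-values. The r was 0.882 without the 2 livers farthest from the median of Plin4 and 0.862 for deviations from the group means. Among all 12696 genes compared, those most like Cidec were Tpm2 (r = 0.892) and Plin4, and those most like Plin4 were Cidec and Txnip (r = 0.808). G0s2 and Pnpla2 had r = -0.805 over all livers, but -0.235 without the 2 farthest livers and -0.159 without GB-IL livers 1 to 3, so that relation rests on those livers. The same held for Cideb and G0s2 (r = 0.827, and 0.245 without GB-IL livers 1 to 3).

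The promoters of Plin4 and Cidec are shown because these members varied together, with that of Plin2 for comparison, as the only member promoter with a match to the PPAR response element. RefSeq promoters (GRCm38.p6) run from 250 bases before a gene's start to 50 after it, and 9 of the 10 members had an entry. Printed are the 250 bases before the start, 5′ to 3′ on the minus strand, at chr17:56109783-56110032 for Plin4, chr6:113435761-113436010 and chr6:113434765-113435014 for the 2 starts of Cidec, and chr4:86670060-86670309 for Plin2. Capitals in Plin2 mark the 13 bases nearest to a response element and, at the end, the first letters of an E-box that crosses the start.
Plin4: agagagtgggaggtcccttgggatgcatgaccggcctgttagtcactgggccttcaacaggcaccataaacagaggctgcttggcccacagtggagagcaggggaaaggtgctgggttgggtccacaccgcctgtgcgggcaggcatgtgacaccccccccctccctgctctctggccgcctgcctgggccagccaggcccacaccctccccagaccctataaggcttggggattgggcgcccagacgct
Cidec, first start: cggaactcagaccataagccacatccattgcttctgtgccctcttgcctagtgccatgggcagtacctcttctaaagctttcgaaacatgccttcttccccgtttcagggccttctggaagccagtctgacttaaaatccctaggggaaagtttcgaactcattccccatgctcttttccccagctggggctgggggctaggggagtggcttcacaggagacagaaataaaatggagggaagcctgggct
Cidec, second start: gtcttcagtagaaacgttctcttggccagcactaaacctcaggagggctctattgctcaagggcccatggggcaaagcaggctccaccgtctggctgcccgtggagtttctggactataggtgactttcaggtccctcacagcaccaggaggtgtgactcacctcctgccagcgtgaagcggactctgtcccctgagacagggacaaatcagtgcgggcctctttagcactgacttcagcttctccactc
Plin2: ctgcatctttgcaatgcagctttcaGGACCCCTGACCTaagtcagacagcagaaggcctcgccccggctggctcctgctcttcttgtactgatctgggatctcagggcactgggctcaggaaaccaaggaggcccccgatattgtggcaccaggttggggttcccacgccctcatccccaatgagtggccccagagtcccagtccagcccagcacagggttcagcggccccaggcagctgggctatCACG

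Each promoter was searched on both strands for the PPAR response element (DR1, a direct repeat of the core AGGTCA with 1 base between) with at most 2 mismatches, for the core alone, the E-box CACGTG and the FOXO site TGTTTAC. The promoters of Plin4, Cidec, Cideb, G0s2, Pnpla2 and Pnpla3 held none of these letters. That of Plin2 held 1 element with 2 mismatches, printed as GGACCCCTGACCT, which overlaps the core, and 1 E-box. The AGGTCA repeat of this element reads on the strand opposite to the printed one. The core was also found at 2 of the 3 starts of Pparg and at both starts of Plin5. Among 32851 RefSeq promoters, 3.86% held the element with at most 2 mismatches, 16.3% the core, 7.15% the E-box and 3.65% the FOXO site. A match is a description of letters and no binding was measured.

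The other members' likest genes were as follows. Bphl (r = 0.989) and C8g (0.984) were most like Cideb, Leap2 (0.945) and RP24-289J12.1 (0.941) were most like G0s2, and 2410131K14Rik (0.982) and Crcp (0.972) were most like Pnpla2. For these 3 members 401, 29 and 153 genes had r of at least 0.9, and for the other members none did. Nt5e (0.871) and Nfe2l2 (0.846) came first for Pparg, Rhou (0.811) and Slc22a15 (0.799) for Plin2, and Emc8 (0.861) and Abcd4 (0.847) for Plin5. Gpc1 (0.728) and Pmm1 (0.727) came first for Cidea, and D930016D06Rik (0.801) was among the likest for Pnpla3.

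Other genes of the pathway were examined as lists. Among 12 tested targets of PPAR-gamma other than the members, 2 rose in GB-IL against DIO and 0 fell, beside 3.15% and 0.112% of all genes. The median log2 fold change of the 12 was 0.35, with 0.04 for all genes. Lpl, which encodes lipoprotein lipase, held 168, 178, 55.2 and 38.1 CPM in the GB-IL livers and 8.75 to 24.8 CPM in DIO. All 4 GB-IL livers were thus above every DIO liver, and 4.17% of all genes had no overlap between these groups. Lpl rose by 2.72 on the log2 scale (standard error 0.499, adjusted p = 0.0278 by edgeR). Fabp5, a fatty acid binding protein abundant in macrophages, held 55.2, 34.5, 34.6 and 4.39 CPM against 1.73 to 5.08 CPM in DIO and rose by 3.26 on the log2 scale (standard error 0.637, adjusted p = 0.0278 by edgeR). Both calls were lost, at an adjusted p of 0.0581 to 0.0942 by edgeR, without GB-IL liver 1, GB-IL liver 2 or any 1 of the 5 DIO livers. Without GB-IL liver 4, 3 of the 12 rose and 3 fell (Mogat1, Acsl1 and Gpd1), with a median of 0.15, where 15.4% of all genes rose and 9.27% fell. In RYGB against DIO, 0 of 12 were called, with log2 fold changes of 1.40 for Lpl and 2.73 for Fabp5. All 5 RYGB livers were nonetheless above every DIO liver for both, and 3.53% of all genes had no overlap between these groups.

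Among 19 tested droplet proteins other than the members, 0 were called in any comparison, with 3 higher and 16 lower in GB-IL against DIO (median log2 fold change -0.41). Of all 14252 tested genes, 7563 were higher and 6689 lower in that comparison. The droplet proteins with the smallest p were Hilpda, an inhibitor of ATGL (log2 fold change 2.03, standard error 0.626, adjusted p = 0.0841 by edgeR), and Mgll, the lipase that finishes triglyceride breakdown (-1.41, standard error 0.497, adjusted p = 0.119). Hilpda held 18.4, 9.54, 3.35 and 2.18 CPM in the GB-IL livers, 1.38 to 2.46 CPM in DIO and 12.5 CPM in RYGB liver 5. Mgll held 40.4, 24.5 and 64.6 CPM in GB-IL livers 1 to 3, 249 CPM in GB-IL liver 4 and 196 to 277 CPM in DIO. Without GB-IL liver 4, 1 of the 19 rose and 9 fell, where 15.4% of all genes rose and 9.27% fell.

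In the list of the PPAR family, its RXR partners and cofactors, 0 of 16 were called in GB-IL against DIO (median -0.12), with Rxrg at -1.22 (adjusted p = 0.110 by edgeR) and Cebpd at 1.57 (adjusted p = 0.118). Among 13 targets of PPAR-alpha, the receptor that drives fat oxidation, 0 were called and 12 were lower (median -0.83), with Acot1 at -1.92 (adjusted p = 0.0580 by edgeR). Among 15 lipogenic genes, 0 were called and 14 were lower (median -0.94), with Mlxipl at -1.37 and Dgat2 at -0.94 (both adjusted p = 0.0962 by edgeR). For both lists the background was 6689 of 14252 tested genes lower in GB-IL against DIO. Without GB-IL liver 4, 8 of the 13 PPAR-alpha targets and 9 of the 15 lipogenic genes fell, with 0 and 1 rising, beside the same 9.27% and 15.4% of all genes. In RYGB against DIO the medians were -0.20 and -0.39 and 0 were called in either list.

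**Figure D4:**
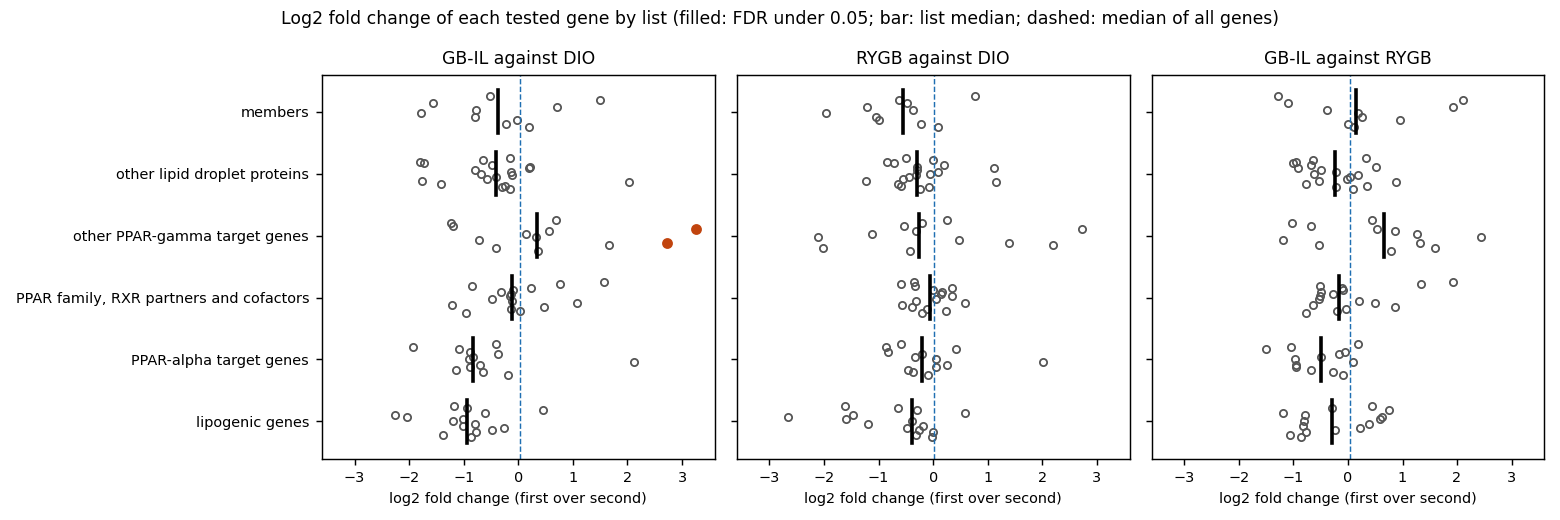
Log2 fold change of each tested gene (circles) in the members and 5 related lists, for the 3 comparisons. Filled circles passed an FDR of 0.05, black bars are list medians and the dashed line is the median of all genes. Only 2 circles, Lpl and Fabp5 in GB-IL against DIO, are filled.

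Markers of other cell types that express some members were examined beside them. Of 7 adipocyte markers, Adipoq, Lep, Plin1, Retn and Ucp1 had too few counts to be tested. Their sum with Cfd and Adrb3 was 2.15, 4.18, 12.4 and 22.0 CPM in the GB-IL livers, 5.12 to 15.0 CPM in DIO and 8.42 to 13.3 CPM in RYGB. This sum was made up mostly of Adrb3 and Cfd in every liver, so it says little about the other markers. Adipoq stood at 0.210, 0, 0.170 and 1.81 CPM in GB-IL livers 1 to 4, against at most 0.0566 CPM in DIO. Retn stood at 0.263, 0.282, 0.0848 and 0.369 CPM in the same livers and at most at 0.102 CPM in DIO. The other markers were not raised in GB-IL liver 1, the liver with the highest Cidec and Plin4. Adrb3 stood there at 0.630 CPM, against 4.33 to 7.48 CPM in DIO, and Cfd, Lep, Plin1 and Ucp1 lay inside the DIO range. GB-IL liver 4, with Cidec at 31.9 CPM, differed from liver 1 in these markers. It held Lep at 1.29, Plin1 at 0.848 and Cfd at 11.5 CPM, against at most 0.0492, 0.0566 and 7.38 CPM in DIO. Adrb3 and Ucp1 in GB-IL liver 4 lay inside the DIO range. Among 5 lipid-associated macrophage markers, 4 rose in GB-IL against DIO, where 3.15% of all genes rose. Gpnmb held 210, 91.5, 16.5 and 0.775 CPM in the GB-IL livers and 0.240 to 0.661 CPM in DIO, and Trem2 held 2.58 to 21.2 CPM against 1.08 to 4.58 CPM. Of 8 markers of macrophages and Kupffer cells, 3 rose (Lyz2, Cd68 and Marco). Of the other lists, 2 of 4 tested cholangiocyte markers, 2 of 5 leukocyte markers and 1 of 8 stellate cell and fibroblast markers rose. Cholangiocyte markers summed to 31.8, 43.6, 13.4 and 8.56 CPM in the GB-IL livers and to 4.73 to 10.5 CPM in DIO. Leukocyte markers summed to 97.2, 43.7, 278 and 22.9 CPM in the GB-IL livers and to 10.5 to 26.1 CPM in DIO. All these marker calls were lost without GB-IL liver 1, GB-IL liver 2 or any 1 of the 5 DIO livers, since 0 genes were then called. The part of these cells in the members' levels was not tested.

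**Figure D5:**
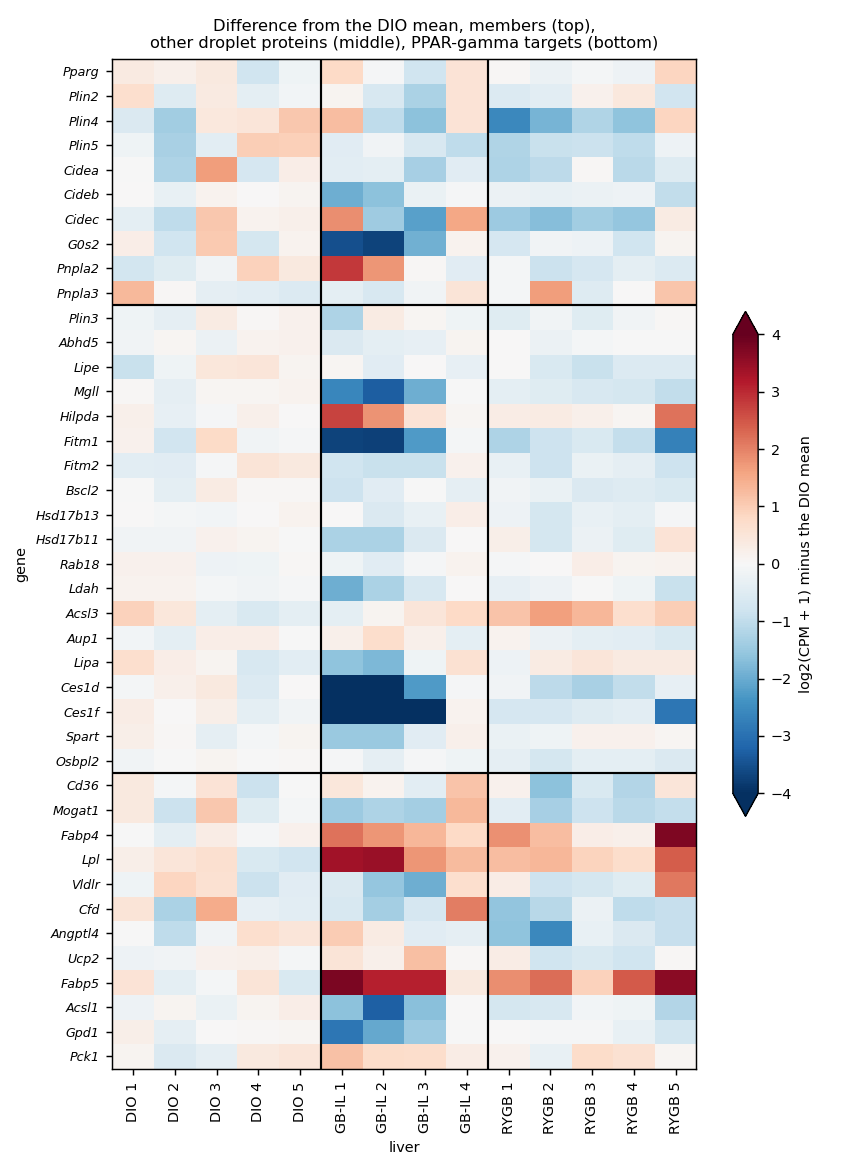
Level of members (top), other droplet proteins (middle) and PPAR-gamma targets (bottom) in each liver, as log2(CPM + 1) minus the mean of the DIO livers. Colours beyond -4 and 4 are clipped. GB-IL livers 1 and 2 show low G0s2, Cideb, Mgll, Fitm1, Ces1d and Ces1f beside high Pnpla2, Lpl and Fabp5, GB-IL liver 4 is nearer to the DIO livers in these genes, with Lpl above all of them, and RYGB liver 5 shows high Fabp4, Lpl and Fabp5.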

How the data were processed

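Liver RNA of 14 mice was sequenced (5 DIO, 4 GB-IL, 5 RYGB). Total RNA was amplified by the authors, HiSeq reads were aligned to mm10 by TopHat 2, and HTSeq gave reads per gene. The deposited values are whole counts without normalization. For strand setting and annotation, nothing is given in the sources used here. In the labels 2 kits appear without assigning them to livers, so no kit term could be fitted. Each liver is a separate mouse.

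The software was R 4.3.3, edgeR 4.0.16 (filterByExpr by group, TMM, quasi-likelihood test, robust estimation off), limma 3.58.1, DESeq2 1.42.0 and Python 3.11.15. The FDR threshold was 0.05 (Benjamini-Hochberg). Standard errors were derived from the F statistic. Correlations used log2(CPM + 1) with 100000 permutations, and likeness was computed over genes with a mean of at least 1 CPM. Intervals for a count of 0 cover counting error only. The tests were checked on simulated data. Positions are those of GENCODE M21, to which 24701 identifiers matched.

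The members and lists were chosen with earlier results of these data known. Named genes were the members, per list those past the FDR or otherwise the 2 with the smallest p in GB-IL against DIO, the 2 genes most like each member, and adipocyte and macrophage markers. Results for a few of these are not reported here. Nop9 and Lamb3 overlap members, and the heat map's other named genes were chosen after their values were seen. Same-numbered livers of different groups did not deviate together (r of -0.381 to 0.381), so the numbers were not treated as pairs. Alternatives were RLE scaling, edgeR's exact test, DESeq2, voom with quality weights per sample, no filter, a mean of at least 50 counts, the 2 compared groups only, a replicate block and each liver left out. After the data were seen, 2 were added: GB-IL liver 4 and RYGB liver 5 both left out, and the exact test with classic dispersions. The second was chosen after the exact test's counts had been seen and set beside earlier results of these data, and both versions are reported.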

Additional observations from a re-analysis of the deposited data

Results flagged for a closer look

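In 30 sets of values (10 members in 3 groups) the highest or lowest liver was compared with its nearest neighbour by Dixon's criterion, and 8 stood apart. Chance gives about 1 in 20 for independent, normally distributed values. The members were measured in the same livers, so the number that stood apart cannot be set against that rate. RYGB liver 5 accounted for 5 of them: it was highest of its group for Pparg (18.2 CPM, next 9.95), Plin4 (66.8, next 15.3), Plin5 (68.4, next 42.8) and Cidec (13.2, next 3.27), and lowest for Cideb (38.2, next 61.8). DIO liver 3 was highest of its group for Cidea (6.87 CPM, next 1.97), and GB-IL liver 3 was lowest for Cidea (0 CPM, next 0.812). DIO liver 1 was highest of its group for Pnpla3 (3.93 CPM, next 1.08). Summed endothelial markers were also highest in RYGB liver 5 (423 CPM, against 131 to 219 CPM in the other RYGB livers), and their part in these values was not tested.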

How the results depend on the processing

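In GB-IL against DIO, the number of genes called was 465, and it was 1292 by DESeq2, 1127 and 1129 by edgeR's exact test with classic and with design-based dispersions, 0 with the 2 compared groups only, 1 with the replicate block, and 3686 with GB-IL liver 4 and RYGB liver 5 both left out. In RYGB against DIO it was 0 in the main fit, 97 by DESeq2, 1690 by voom, 43 and 44 by the exact test and 33 with the 2 groups only. In GB-IL against RYGB it was 0 in the main fit, 845 by DESeq2, 115 by voom, 678 and 681 by the exact test, 51 without a filter and 3089 with both livers left out. Leaving out 1 liver gave 0 to 3572, 0 to 5 and 0 to 3120 genes in the same order, the highest each without GB-IL liver 4. The first of these counts was 0 without GB-IL liver 1 or 2 or any 1 DIO liver.

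Members called were 0 in the main fit. In GB-IL against DIO there was 1 by DESeq2 (beside 9.07% of all genes) and 3 with both livers left out (25.7%). When 1 liver was left out there were 0 to 3, with 3 only without GB-IL liver 4 (24.6%). In RYGB against DIO there were 3 by voom (11.9%). In GB-IL against RYGB there was 1 by DESeq2 (5.93%) and by each exact test (4.78% with design-based dispersions). There were 2 with both livers left out (21.5%) and 0 to 2 when 1 liver was left out, with 2 only without GB-IL liver 4 (21.5%). The replicate block called 0 members.

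Signs turned only for values that no test called. By voom these were Cidea (-1.85), Plin2 (-0.67) and Pparg (-0.26) in GB-IL against RYGB, Cidec (-1.47), Pnpla3 (0.47) and Pparg (-0.15) in GB-IL against DIO, and Plin2 (0.017) in RYGB against DIO. Plin2 in GB-IL against RYGB was -0.036 without a filter, -0.13 with the replicate block, -0.0018 with the 2 groups only and -0.46 with both livers left out. Plin4 in GB-IL against DIO was 0.0092 at a mean of at least 50 counts and 0.41 with the replicate block, and Pparg in RYGB against DIO was -0.20 with both livers left out. Leaving out 1 liver gave log2 fold changes in GB-IL against DIO of -0.58 to 0.016 for Plin2, -0.65 to 0.30 for Plin4, -1.20 to 0.50 for Pnpla3 and -0.073 to 0.44 for Pparg. In GB-IL against RYGB they were -0.087 to 1.05 for Cidea, -0.35 to 0.24 for Plin2 and -0.16 to 0.39 for Pparg, and in RYGB against DIO -0.19 to 0.19 for Pparg. The cause of these changes was not tested. Cidea and Pnpla3 are limited by few counts.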
